A study of Mus musculus with 48 samples.

Results

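Vanins are enzymes that hydrolyse pantetheine, a breakdown product of coenzyme A, into pantothenate (vitamin B5) and cysteamine. *Vnn1* and *Vnn3* are the mouse members described here. They were chosen as the gene names *Vnn1* and *Vnn3* in the scanner files, so they are 2 of 37074 gene names on the array and 2 of 22029 gene names with a probe bright enough to test. Each gene was measured by 1 probe, and both probes passed the filter on dim signals.

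Pantothenate released by vanins can be phosphorylated again to build coenzyme A, the carrier of acyl groups in fatty acid oxidation. Cysteamine can be oxidised to hypotaurine and then taurine, which the liver joins to bile acids, and it also enters the thiol chemistry of glutathione. VNN1 is anchored to the cell membrane and is abundant in liver, and *Vnn1* is known as a gene that responds to PPARα (peroxisome proliferator-activated receptor α), a nuclear receptor activated by fatty acids.

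The data were liver expression profiles of 48 male C57Bl6J mice, 8 in each of 6 groups, on Agilent 1-colour microarrays. There were 3 genotypes. *WT* mice came from a supplier. *Pparα hep-/-* mice (PPARaLKO in the labels, called hepatocyte knockouts) carried floxed *Pparα* and a Cre transgene driven by the albumin promoter, which removes an exon of *Pparα* in hepatocytes. *Pparα-/-* mice (PPARaKO in the labels, called whole-body knockouts) lacked *Pparα* in the whole body. Both mutant lines were bred by the laboratory, so the origin of the *WT* mice cannot be told apart from their genotype. Each genotype received a control diet (CTRL) or a high-fat diet (HFD, 60% fat) for 12 weeks according to the labels, although the study's own methods give a shorter feeding period. All mice were 20 weeks old, housed at thermoneutrality and killed in the fed state. The comparisons ask how far the HFD response of each gene depended on PPARα in hepatocytes and in the rest of the body.

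The *Vnn1* probe lies on chromosome 10 at 23624524 to 23624583 of mouse build mm9 and the *Vnn3* probe at 23587033 to 23589353, as annotated in the scanner files. The *Vnn3* probe has 60 bases but spans 2321 bases of genome, so its bases lie in more than 1 exon. The probes are 35170 bases apart, with 0 genes annotated between *Vnn3* and *Vnn1* in RefSeq. The last 30 bases of each probe are shown because they let the reader see how little the probes share; capitals mark AATAAA, the hexamer that precedes many polyadenylation sites, which occurs in the *Vnn1* probe only.
Vnn1: caAATAAAgtgcctcttctttagaaaaaca
Vnn3: gatattatgaagtctcaagagatggacgtc
The longest run of letters common to both full probes was 6 bases. The longest run shared with a probe of any other gene was 15 bases for *Vnn1* and 18 bases for *Vnn3*. The RefSeq promoter of *Vnn3* (GRCm38.p6) held 0 matches on either strand to AGGTCA, which occurred in 16.3% of 32851 promoters of the same length, and 0 to that motif repeated with 1 base between the copies (DR1), which occurred in 0.0396%. It also held 0 matches to TATAAA, found in 13.6% of promoters. The *Vnn1* promoter was not analysed here.

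Signals are log2 values after quantile normalization of the arrays, so a difference of 1 is a doubling. A probe was called changed when its limma p-value, adjusted by Benjamini-Hochberg over the 33323 probes tested, was at most 0.05. The median signal of an array ranged from 56 to 91 intensity units over a median local background of 20 to 36. *Ppara*, the targeted gene, had 2 probes, and neither is known to lie in the deleted exon. On CTRL the brighter *Ppara* probe was lower in whole-body knockouts than in *WT* by 0.65 ± 0.10 (SE, adjusted p = 1.1e-06) and the dimmer one by 1.11 ± 0.10 (adjusted p = 5.27e-13). Hepatocyte knockouts on CTRL had the brighter probe lower, with a difference of -0.42 (adjusted p = 0.000887), and the dimmer one differed by -0.10 (adjusted p = 0.454). On HFD the brighter and dimmer probes differed from *WT* by -0.85 (adjusted p = 5.12e-10) and -0.68 (adjusted p = 3.34e-08) in hepatocyte knockouts, and by -1.08 (adjusted p = 2.77e-14) and -1.29 (adjusted p = 1.74e-17) in whole-body knockouts. All 6 hepatocyte markers were well above background in every mouse. *Alb* and *Serpina1c* lay near the top of the normalized scale, while the group means of *Cps1* ran from 13.29 to 14.54 and those of *Hnf4a* from 15.32 to 15.73, both highest in *WT* CTRL. Those of *Apoa1* ran from 16.45 to 16.91, also highest in *WT* CTRL. *Ttr* went otherwise, with group means from 17.90 in *WT* HFD to 18.06 in *Pparα hep-/-* HFD. Because the samples were whole liver, fewer cells of a type and less RNA per cell cannot be told apart.

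*Vnn1* was highest in *WT* mice on HFD and lowest in *Pparα-/-* mice on CTRL. In *WT* mice on CTRL the log2 signal ran from 8.41 to 10.22 with a median of 9.61, and on HFD from 9.04 to 12.34 with a median of 11.86. Hepatocyte knockouts ran from 5.84 to 8.91 (median 7.32) on CTRL and from 7.77 to 10.03 (median 8.62) on HFD. Whole-body knockouts ran from 5.18 to 7.45 (median 5.57) on CTRL and from 5.95 to 7.72 (median 7.05) on HFD. Within each genotype the HFD mice were shifted upwards but overlapped the CTRL mice. The overlap in *WT* mice came from HFD replicates 1 and 2, at 10.21 and 9.04, while the other 6 HFD mice were above every *WT* CTRL mouse.

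The group means of *Vnn1* rose in the order *Pparα-/-* CTRL (5.77 ± 0.72, SD, n = 8), *Pparα-/-* HFD (6.96 ± 0.54), *Pparα hep-/-* CTRL (7.39 ± 1.00), *Pparα hep-/-* HFD (8.71 ± 0.79), *WT* CTRL (9.41 ± 0.73) and *WT* HFD (11.40 ± 1.16). Neighbours in that order overlapped in range. The gaps between *Pparα-/-* HFD and *Pparα hep-/-* CTRL (0.43) and between *Pparα hep-/-* HFD and *WT* CTRL (0.70) were within the SDs of the groups. On the *Pparα-/-* CTRL arrays the *Vnn1* spot was well above background in 3 of 8 mice, against 8 of 8 in every other group, and its median raw intensity was 45.5 over a local background of 16 to 27. *Vnn1* was thus close to the detection limit in those mice, and differences from that group on the quantile normalized scale depend on how background is handled.

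**Figure D1:**
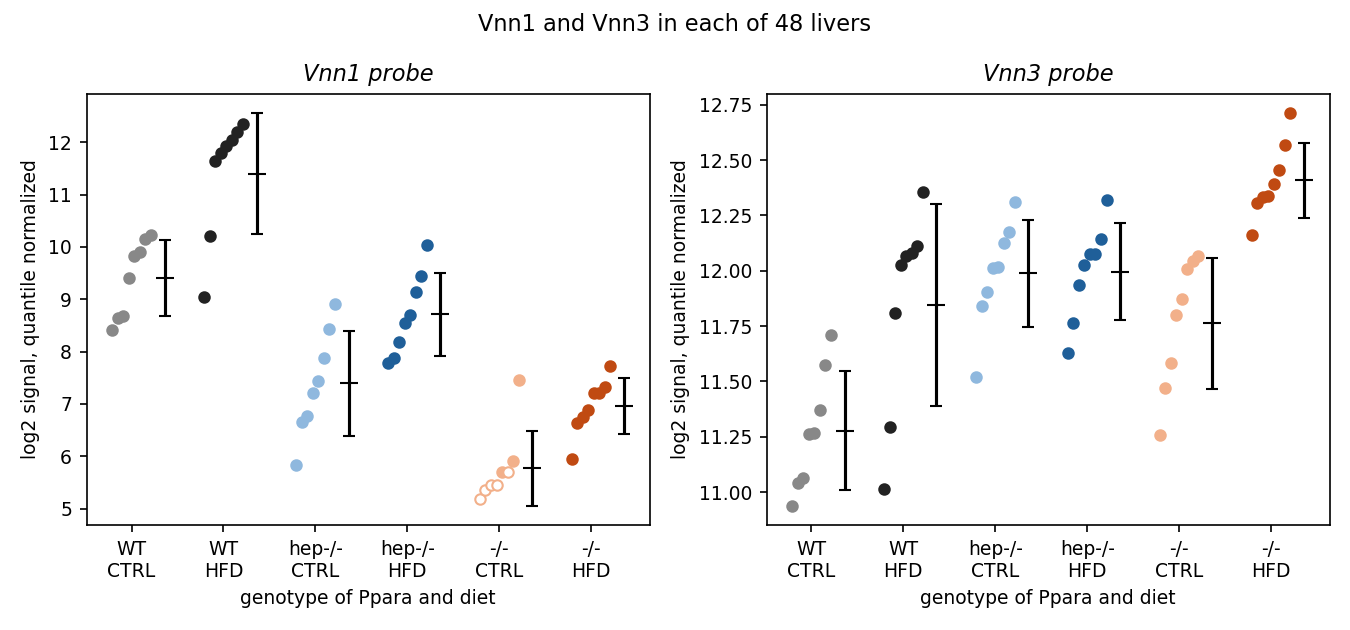
Log2 signal of the *Vnn1* probe (left) and the *Vnn3* probe (right) in each of 48 livers by genotype and diet, 1 point per mouse sorted by value within its group, open where the spot was not well above background; bars are the mean ± SD of 8 mice and the vertical axes differ. *Vnn1* means span 5.77 to 11.40 with mutant groups below the *WT* group of the same diet, whereas *Vnn3* means span 11.28 to 12.41.

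HFD raised *Vnn1* in all 3 genotypes by the test used here, whereas the study named it as responding to HFD in *WT* mice only. In *WT* mice the fitted rise was 2.39 ± 0.38 on the log2 scale (SE), or 5.25-fold (adjusted p = 1.93e-05), and 18.7% of the probes tested were called in that comparison. The plain difference of the *WT* group means was smaller, at 1.99. In the fit the low *WT* HFD replicates 1 and 2 had array weights of 0.54 and 0.34. The fitted rise was 1.64 ± 0.32 in *Pparα hep-/-* mice, or 3.11-fold (adjusted p = 0.000349, with 20.2% of probes called). *Pparα-/-* mice showed a rise of 1.26 ± 0.34 (adjusted p = 0.00539, with 24.8% called), measured from a group in which the probe was well above background in 3 of 8 mice. Ranked by the size of the fitted difference among the 33323 probes, *Vnn1* was 22nd in *WT* and 81st in *Pparα hep-/-* mice. Without array weights the rise in *Pparα hep-/-* mice was 1.36 and missed the threshold (adjusted p = 0.0525). On the scanner's background-subtracted signal scaled to the 75th percentile of each array, the rise in *Pparα-/-* mice was 2.50, and after normexp background correction it was 0.88. Within the second wash batch alone the rises in the mutants were 1.24 and 1.03 and missed the threshold.

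The fitted HFD response of *Vnn1* was larger in *WT* than in mutant mice, but no difference between responses passed the test. The *WT* response exceeded that of *Pparα hep-/-* mice by 0.76 (95% interval -0.26 to 1.77, adjusted p = 0.343, with 10.4% of probes called) and that of *Pparα-/-* mice by 1.13 (0.10 to 2.16, adjusted p = 0.127, with 14.3% called). Between the mutants the responses differed by 0.38 (-0.57 to 1.33, adjusted p = 0.753, with 3.42% called). The comparison of *WT* with *Pparα-/-* responses depended on the background correction. It was 1.48 and passed the test after normexp correction (adjusted p = 0.0192), and was 0.021 on the background-subtracted, percentile-scaled signal.

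*Vnn1* was lower in both mutants than in *WT* on both diets, and lower in whole-body than in hepatocyte knockouts. On CTRL, *Pparα hep-/-* mice were below *WT* by 2.12 ± 0.37 (log2 difference -2.12, or 4.36-fold lower, adjusted p = 3.17e-05, with 24.7% of probes called). *Pparα-/-* mice were below *WT* by 3.57 ± 0.39 (-3.57, adjusted p = 3.83e-10, with 34.2% called), a size that rests on the dim *Pparα-/-* CTRL spots. *Pparα-/-* mice were also below *Pparα hep-/-* mice, with a log2 difference of -1.45 ± 0.35 (adjusted p = 0.00138, with 25.2% called). All *Pparα-/-* mice lay below all *WT* mice, as was so of 6.15% of probes in either direction, whereas *Pparα hep-/-* mice overlapped both other genotypes. On the background-subtracted, percentile-scaled signal, *Pparα-/-* mice on CTRL differed by -5.15 from *WT* and by -2.59 from *Pparα hep-/-* mice. After normexp correction the difference from *WT* was -2.90.

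On HFD the order of the genotypes was the same. *Vnn1* in *Pparα hep-/-* mice differed from *WT* by -2.88 ± 0.34 (7.36-fold lower, adjusted p = 1.25e-08, with 26.7% of probes called) and in *Pparα-/-* mice by -4.70 ± 0.33 (26.0-fold lower, adjusted p = 6.5e-16, with 45.7% called). The latter ranked 14th in size among all probes. *Pparα-/-* mice differed from *Pparα hep-/-* mice by -1.82 ± 0.31 (adjusted p = 9.35e-06, with 30.6% called). On HFD, *Pparα-/-* mice did not overlap *WT* mice, as was so of 6.93% of probes, nor *Pparα hep-/-* mice, as was so of 6.55%. Within the first wash batch, the difference between the mutants on CTRL was -0.82 and missed the threshold (adjusted p = 0.45).

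**Figure D2:**
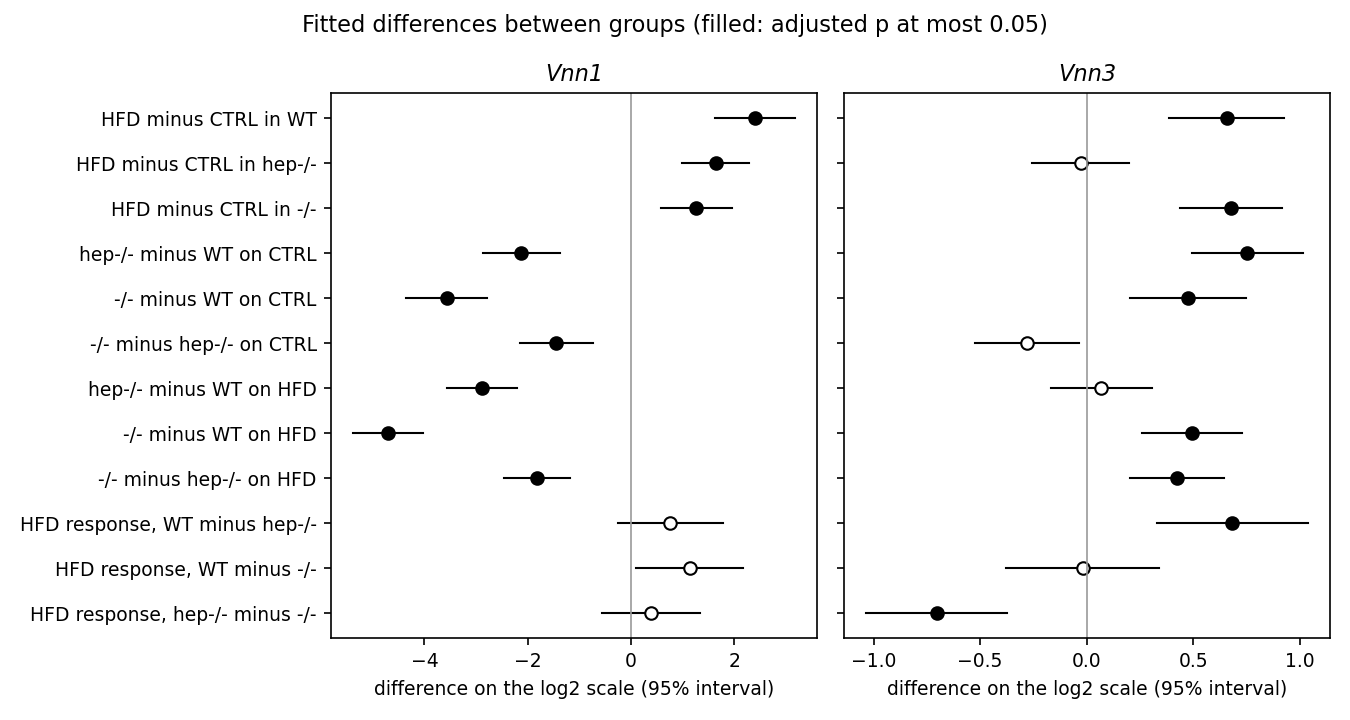
Fitted log2 differences with 95% intervals for *Vnn1* (left) and *Vnn3* (right) in 12 comparisons, filled where the adjusted p-value was at most 0.05; the horizontal axes differ. For *Vnn1* the 3 HFD responses were above 0 and the 6 genotype differences below 0, while 6 of those 9 comparisons were above 0 and called for *Vnn3*, with the *Pparα hep-/-* HFD response at -0.027.

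*Vnn3* moved over a narrower range and in another order. In *WT* mice its log2 signal ran from 10.94 to 11.71 (median 11.27) on CTRL and from 11.02 to 12.36 (median 12.05) on HFD. Hepatocyte knockouts ran from 11.52 to 12.31 (median 12.01) on CTRL and from 11.63 to 12.32 (median 12.05) on HFD. Whole-body knockouts ran from 11.26 to 12.06 (median 11.84) on CTRL and from 12.16 to 12.71 (median 12.37) on HFD. All 48 spots were well above background. *WT* CTRL mice were low, *Pparα-/-* HFD mice were high without overlapping *Pparα-/-* CTRL mice, and the *Pparα hep-/-* groups covered nearly the same range on both diets. *WT* HFD replicates 1 and 2 were again the low mice of their group, at 11.30 and 11.02.

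The means of *Vnn3* rose from *WT* CTRL (11.28 ± 0.27, SD, n = 8) through *Pparα-/-* CTRL (11.76 ± 0.30), *WT* HFD (11.84 ± 0.46), *Pparα hep-/-* CTRL (11.99 ± 0.24) and *Pparα hep-/-* HFD (12.00 ± 0.22) to *Pparα-/-* HFD (12.41 ± 0.17). Steps of 0.082, 0.14 and 0.0078 separated the 4 middle groups and were smaller than their SDs. *WT* CTRL was the lowest group for *Vnn3*, whereas for *Vnn1* it was the second highest.

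HFD raised *Vnn3* in *WT* mice by 0.66 ± 0.13 (1.58-fold, adjusted p = 0.000403) and in *Pparα-/-* mice by 0.68 ± 0.12 (1.60-fold, adjusted p = 5.81e-05). The diets did not overlap in *Pparα-/-* mice, as was so of 1.44% of probes. The hepatocyte knockouts differed by -0.027 ± 0.11 (95% interval -0.25 to 0.20, adjusted p = 0.897). The response in *Pparα hep-/-* mice was smaller than in *WT* by 0.68 (adjusted p = 0.00976) and differed from that in *Pparα-/-* mice by -0.70 (adjusted p = 0.00974), and both differences passed the test. Without array weights they were 0.55 (adjusted p = 0.189) and -0.63 (adjusted p = 0.185) and did not pass, nor did they within the second wash batch (0.57 and -0.79). Within the first wash batch the rise in *Pparα-/-* mice was 0.41 and missed the threshold. The *WT* and *Pparα-/-* responses differed by -0.019 (-0.38 to 0.34, adjusted p = 0.958).

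On CTRL, *Vnn3* exceeded its *WT* level in hepatocyte knockouts by 0.75 ± 0.13 (adjusted p = 2.4e-05) and in *Pparα-/-* mice by 0.48 ± 0.14 (adjusted p = 0.00495). The mutants differed from each other by -0.28 (95% interval -0.52 to -0.034, adjusted p = 0.0886). On HFD, *Pparα-/-* mice were higher than *WT* by 0.49 ± 0.12 (adjusted p = 0.000498) and higher than *Pparα hep-/-* mice by 0.43 ± 0.11 (adjusted p = 0.00216). *Pparα hep-/-* mice differed from *WT* by 0.069 on HFD (-0.17 to 0.31, adjusted p = 0.71). The differences of *Pparα-/-* mice from the other HFD groups were 0.29 and 0.37 within the first wash batch and missed the threshold there, as did the difference from *WT* on CTRL within the second (0.41).

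Macrophage markers moved in some of the same comparisons as *Vnn3*. In whole-body knockouts, 6 of 8 markers of Kupffer cells and macrophages rose on HFD (24.8% of all probes were called in either direction), among them *Cd68* by 1.17 (adjusted p = 0.000184), *Adgre1* by 0.93 (adjusted p = 0.00168) and *Vsig4* by 0.88 (adjusted p = 0.00209). Their summed intensity ran from 23594 to 48883 on CTRL and from 39839 to 80587 on HFD in these mice. In *WT* mice, where *Vnn3* also rose, 0 of the 8 passed in limma, and 0 had an unadjusted p under 0.05 (18.7% of all probes were called), with sums of 18394 to 41332 on CTRL and 14705 to 75925 on HFD. Among *Pparα hep-/-* mice 2 of 8 rose, a share near the 20.2% of all probes called, and the sums were 32452 to 49287 and 35372 to 70934. In the other comparisons in which *Vnn3* was called higher, 2 of 8 markers were higher in hepatocyte knockouts than in *WT* on CTRL (24.7% of all probes called) and 3 of 8 in whole-body knockouts than in *WT* on CTRL (34.2%). On HFD, whole-body knockouts had 7 of 8 higher than *WT* (45.7%) and 3 of 8 higher than hepatocyte knockouts (30.6%). Hepatocyte knockouts on HFD had 5 of 8 higher than *WT* (26.7%), with *Vnn3* different by 0.069. A second, dimmer probe of *Csf1r* was called in the opposite direction, with -0.32 for HFD in *Pparα-/-* mice and -0.39 for *Pparα-/-* against *WT* on HFD. The part of these cells in the *Vnn3* levels was not tested.

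Of 7 neutrophil markers, 0 rose on HFD in *WT* (0 at an unadjusted p under 0.05), 2 in *Pparα hep-/-* and 3 in *Pparα-/-* mice, beside 18.7%, 20.2% and 24.8% of all probes called. Against *WT* on HFD, 4 were higher and 1 lower in whole-body knockouts (45.7% of all probes called), and 1 was higher in hepatocyte knockouts (26.7%). Whole-body knockouts had 2 higher and 1 lower than hepatocyte knockouts on HFD (30.6%). On CTRL, 0 were higher and 1 lower than *WT* in each mutant (24.7% and 34.2%). Of the adipocyte markers, *Adipoq* did not pass the filter on dim probes and *Cfd*, which encodes adipsin, rose by 5.79 in *WT* mice (adjusted p = 3.81e-07). Like *Vnn1*, *Cfd* was lower on HFD in hepatocyte knockouts (adjusted p = 2.44e-11) and whole-body knockouts (adjusted p = 2.79e-14) than in *WT*, with group means of 7.21 and 6.09 against 12.60, and it was lower in whole-body knockouts on CTRL (adjusted p = 0.00285). The summed signal of the 3 adipocyte markers tested, 266 to 1232 in *WT* mice on CTRL and 425 to 47018 on HFD, moved with *Cfd*. *Lep* differed by 0.0043 (adjusted p = 0.984) and *Retn* by 0.058 (adjusted p = 0.792) between the diets in *WT* mice. Of 7 kidney and gut markers, organs that also express vanins, 4 did not pass the filter, and *Slc34a1* and *Vil1* had group means between 5.20 and 5.95 on the log2 scale. *Fabp2*, the intestinal fatty acid binding protein, was bright in all groups and rose by 0.64 in *WT* and by 1.04 in *Pparα-/-* mice. Of 5 pancreas markers 2 were tested, and both fell on HFD in *Pparα-/-* mice, while *Ctrb1* also fell in hepatocyte knockouts, by 0.60 (adjusted p = 0.0011). The part of these cells in either vanin was not tested.

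The difference between the log2 signals of *Vnn1* and *Vnn3* in a liver measures how the genes changed against each other, not which of them is more abundant. Its group mean was -1.87 ± 0.58 in *WT* CTRL, -0.45 ± 0.73 in *WT* HFD, -4.60 ± 1.14 in *Pparα hep-/-* CTRL, -3.29 ± 0.76 in *Pparα hep-/-* HFD, -5.99 ± 0.76 in *Pparα-/-* CTRL and -5.45 ± 0.55 in *Pparα-/-* HFD (SD, n = 8). Two-sided exact permutation tests within wash batches were run for 9 comparisons and adjusted over them. HFD shifted the balance towards *Vnn1* by 1.42 in *WT* (adjusted p = 0.00367, exact test) and by 1.31 in hepatocyte knockouts (adjusted p = 0.0305, exact test). For whole-body knockouts the shift was 0.54 (adjusted p = 0.134, exact test), with 1.16 in the first and -0.069 in the second wash batch. That shift was 1.87 and passed the test with 75th percentile scaling (adjusted p = 0.0161, exact test), was 0.76 and passed without *Pparα-/-* CTRL replicate 2 (adjusted p = 0.0156, exact test), and was 0.20 after normexp correction. The *Pparα hep-/-* result missed the threshold when any of 6 mice was left out, with values down to 0.96.

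The balance differed between genotypes in all 6 comparisons. Compared with *WT*, it moved towards *Vnn3* in *Pparα hep-/-* mice by -2.76 on CTRL and -2.87 on HFD, and in *Pparα-/-* mice by -4.12 on CTRL and -5.00 on HFD. *Pparα-/-* mice lay further towards *Vnn3* than *Pparα hep-/-* mice, by -1.36 on CTRL and -2.12 on HFD. The difference on CTRL was -2.57 with 75th percentile scaling, -0.92 after normexp and -0.82 without *Pparα hep-/-* CTRL replicate 1, and passed the test in each. With all mice the difference on CTRL had an adjusted p of 0.0108 and the other 5 had 0.000816 (exact permutation tests). The smallest raw p these splits allow is 0.000227 to 0.000408.

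Within *WT* HFD mice the vanins varied together. Pearson's r was 0.97 over 8 mice (exact permutation p = 0.000843, 0.00506 adjusted over 6 groups) and Spearman's rho was 0.83 (exact permutation adjusted p = 0.0923). The relation rests on the low replicates 1 and 2, since without both r was 0.74 (exact permutation p = 0.108, n = 6), while with any 1 mouse left out it was 0.95 to 0.98. These 2 arrays had weights of 0.54 and 0.34 in the fit, which r does not use. Both *Ppara* probes were also lowest of the group in these 2 mice, the brighter at 14.65 in each and the dimmer at 12.99 and 12.86. Whether the relation is particular to the vanins was not tested. In *WT* CTRL mice r was 0.71 (exact permutation adjusted p = 0.172), and 0.83 without the 2 mice farthest from the median (exact permutation p = 0.0333, n = 6). In the mutant groups r lay between -0.53 and 0.23, and the exact permutation adjusted p was 0.352 or higher. The -0.53, in *Pparα hep-/-* CTRL mice, was -0.015 without replicate 1, the array with the lowest weight (0.189). Over all 48 livers, which fall into groups with different levels, r was -0.14, and it was 0.40 after the group means were removed, both given as descriptions.

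**Figure D3:**
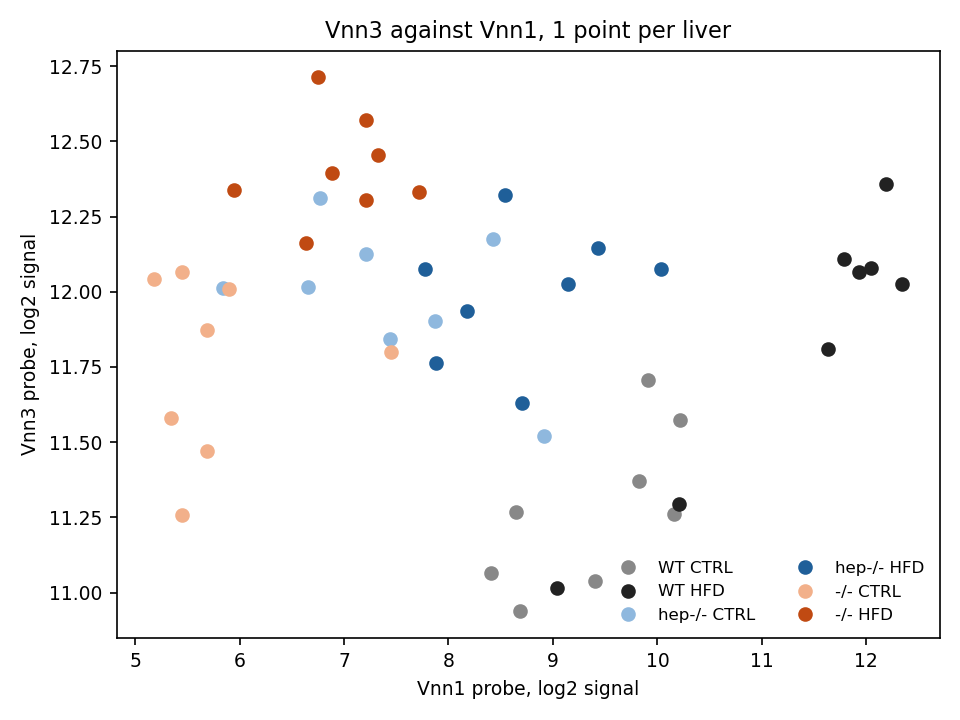
Log2 signal of the *Vnn3* probe against that of the *Vnn1* probe, 1 point per liver, coloured by genotype and diet. The *WT* HFD mice spread along a rising line with a pair of low mice (r = 0.97), while the *Pparα-/-* HFD mice lie high on the *Vnn3* axis and at 7.72 or below on the *Vnn1* axis.

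The genes whose probes followed *Vnn1* most closely over the 48 arrays, by Pearson's r after removal of the wash batch term, were *Slc25a20* (0.961), *Cpt2* (0.960), *Hsdl2* (0.946), *Hsd17b4* (0.940) and *Dhrs4* (0.939). *Slc25a20* encodes the mitochondrial carnitine-acylcarnitine carrier and *Cpt2* the carnitine palmitoyltransferase of the inner membrane. HFD raised *Slc25a20* by 0.78 (*WT*), 0.71 (*Pparα hep-/-*) and 0.73 (*Pparα-/-*), all called. Its difference from *WT* on HFD was -1.16 in hepatocyte knockouts and -1.88 in whole-body knockouts. The genes closest to *Vnn3* were *Fmo1* (0.880), *Bche* (0.845), *Agmo* (0.839), *Slc16a7* (0.836) and *Slco1a4* (0.832). *Fmo1*, a flavin monooxygenase that oxidises hypotaurine to taurine, rose on HFD by 0.49 in *WT* (adjusted p = 0.00564) and 0.53 in *Pparα-/-* mice (adjusted p = 0.000755), with 0.23 in *Pparα hep-/-* mice (adjusted p = 0.14). The arrays shared by these genes also share group, batch and RNA quality, so the values are descriptions.

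Some genes that make, move and break down coenzyme A changed. Of 13 tested, 5 rose and 2 fell on HFD in *WT* mice (median 0.091), 0 rose and 1 fell in *Pparα hep-/-* mice (median -0.012), and 1 rose and 4 fell in *Pparα-/-* mice (median -0.048). Over all probes the median was between -0.018 and -0.011 in these comparisons, and 18.7%, 20.2% and 24.8% were called. Without array weights the diet counts became 4 higher and 0 lower in *WT*, 0 and 0 in *Pparα hep-/-* and 0 and 2 in *Pparα-/-* mice, and with 75th percentile scaling 5 and 0, 0 and 3, and 0 and 5. In *WT* mice *Pank1*, a pantothenate kinase that starts coenzyme A synthesis, rose by 0.60 (adjusted p = 5.13e-05), the mitochondrial coenzyme A transporter *Slc25a42* by 0.58 (adjusted p = 0.000286) and *Ppcdc*, a later enzyme of the route, by 0.30 (adjusted p = 0.000602). The *Pank1* response of *WT* mice exceeded that of hepatocyte knockouts by 0.63 (adjusted p = 0.00245) and that of whole-body knockouts by 0.55 (adjusted p = 0.00608). Without array weights 0 of 13 genes were called for the former difference, *Pank1* included, and 2 of 13 for the latter. *Nudt7*, a peroxisomal coenzyme A hydrolase, fell by 0.82 in hepatocyte knockouts and by 0.92 in whole-body knockouts. Its difference in *WT* mice was -0.48 (adjusted p = 0.0972), and neither mutant response passed the test against that of *WT* (adjusted p = 0.435 and 0.293).

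Between genotypes most called coenzyme A genes were lower in the mutants. Against *WT* on CTRL, hepatocyte knockouts had 2 higher and 4 lower, and whole-body knockouts 2 higher and 5 lower, beside 24.7% and 34.2% of all probes called. The HFD counts were 0 higher and 7 lower for hepatocyte knockouts, and 1 higher and 7 lower for whole-body knockouts, beside 26.7% and 45.7% called. Without array weights the HFD counts were 0 higher and 3 lower, and 1 higher and 5 lower. With 75th percentile scaling they were 0 and 11, and 1 and 9. *Slc5a6*, which imports pantothenate and biotin, differed by -1.02 between *Pparα hep-/-* and *WT* mice on CTRL (adjusted p = 3.75e-05). *Ppcs*, which joins cysteine to phosphopantothenate, differed by -0.53 in that comparison and by -0.80 between *Pparα-/-* and *WT* mice on HFD. *Ppcdc* went the other way and exceeded its *WT* level by 0.77 in *Pparα-/-* mice on CTRL (adjusted p = 1.03e-13). It was also higher than in *WT* by 0.33 in *Pparα hep-/-* mice on CTRL and by 0.38 in *Pparα-/-* mice on HFD.

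On the cysteamine side, 6 of 7 taurine genes were tested and 2 rose and 1 fell on HFD in *WT* mice, 0 were called in *Pparα hep-/-* mice (3 had an unadjusted limma p under 0.05) and 2 rose in *Pparα-/-* mice. Of all probes 18.7%, 20.2% and 24.8% were called in these comparisons. Beside *Fmo1*, *Baat*, which joins taurine or glycine to bile acids, rose by 0.36 in *WT* mice (adjusted p = 0.000545), and the taurine transporter *Slc6a6* fell by 0.67 (adjusted p = 0.000196). *Cdo1*, the cysteine dioxygenase, rose by 0.46 in *Pparα-/-* mice (adjusted p = 0.000294). *Csad*, which makes hypotaurine from the product of *Cdo1*, was lower in *Pparα-/-* than in *WT* mice on HFD, with a difference of -1.53 (adjusted p = 1.77e-05).

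Of the glutathione genes, 4 of 6 were tested and 0 were called by limma on HFD in *WT* mice, with 0 at an unadjusted p under 0.05. Over all probes the shares called on HFD were 18.7% for *WT*, 20.2% for hepatocyte knockouts and 24.8% for whole-body knockouts. Hepatocyte knockouts had 3 that rose, namely the glutathione synthetase *Gss* by 0.69 (adjusted p = 3.93e-05), the catalytic subunit *Gclc* of the ligase that starts the route by 0.57 (adjusted p = 0.00823) and the reductase *Gsr* by 0.29 (adjusted p = 0.00634). Whole-body knockouts had 2 that rose, *Gsr* by 0.24 and the ligase's other subunit *Gclm* by 0.22. Without array weights 1 rose in hepatocyte and 0 in whole-body knockouts, and with 75th percentile scaling 3 and 0. *Btd*, the biotinidase of the same enzyme family as the vanins, fell by 0.26 on HFD in *Pparα hep-/-* mice (adjusted p = 0.0123) and was lower in *Pparα-/-* than in *WT* mice on CTRL and on HFD, by differences of -0.25 and -0.29.

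**Figure D4:**
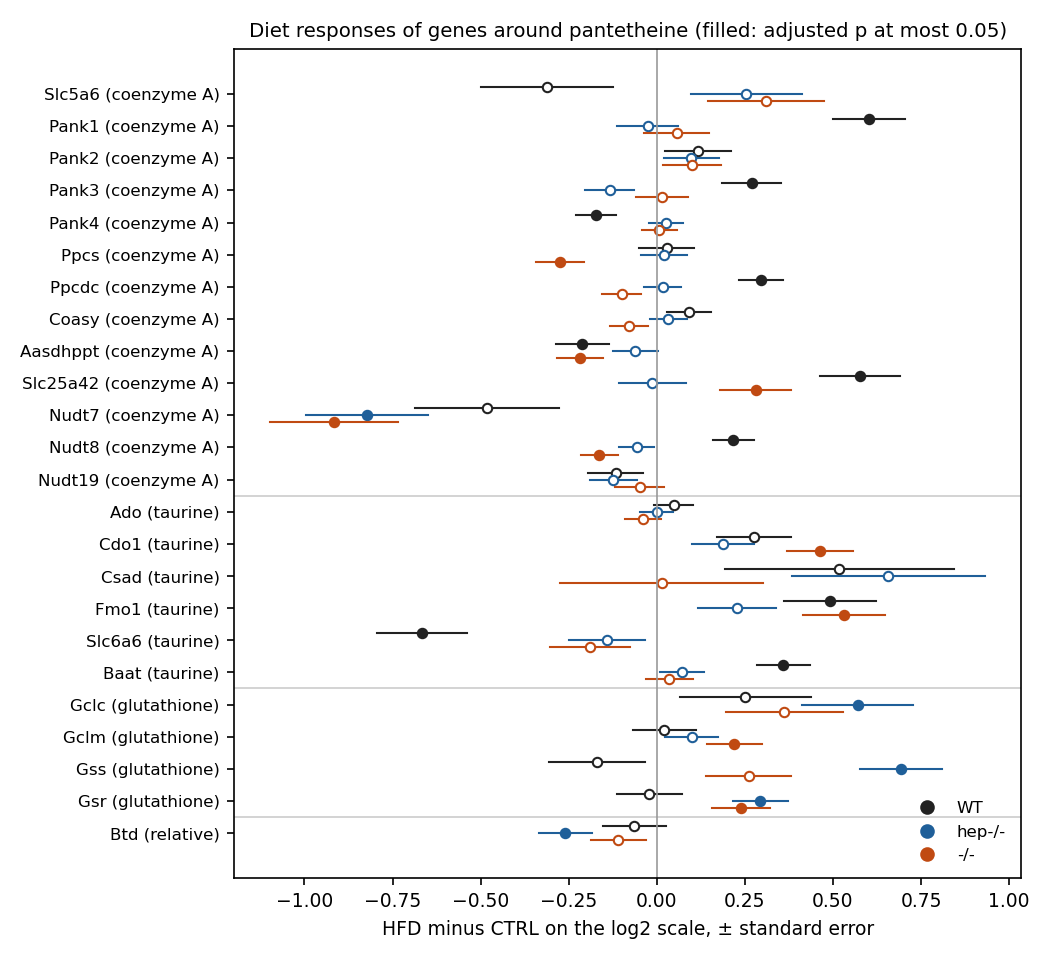
HFD response (log2, ± SE) of each tested gene of coenzyme A, taurine and glutathione metabolism and of *Btd* in the 3 genotypes, 8 mice per diet and genotype, filled where the adjusted p-value was at most 0.05. *Pank1* (0.60) rose in *WT* mice, *Slc25a42* in *WT* (0.58) and *Pparα-/-* mice (0.28) and *Gss* (0.69) in *Pparα hep-/-* mice, while *Nudt7* was below 0 in all 3 genotypes and called in the mutants (-0.82 and -0.92).

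Among 25 genes known as PPARα targets, 19 rose and 0 fell on HFD in *WT* mice (median 0.72), 8 rose and 1 fell in *Pparα hep-/-* mice (median 0.27) and 11 rose and 0 fell in *Pparα-/-* mice (median 0.54), beside 18.7%, 20.2% and 24.8% of all probes called. Some of these genes were named as examples by the study on these samples, so the counts are not independent evidence of a direction. In *WT* mice the fatty acid hydroxylases *Cyp4a31* and *Cyp4a14* rose by 2.62 and 2.56 and *Cyp4a10* by 2.50, beside the 2.39 of *Vnn1*. The *Cyp4a14* probe was well above background in 4 of 8 *WT* CTRL mice. In *Pparα-/-* mice *Fgf21*, a hepatokine, rose by 2.53 (adjusted p = 5.99e-06) and *Cyp4a31* by 1.74 (adjusted p = 0.00841), beside the 1.26 of *Vnn1*. Only 1 of 8 whole-body knockouts on CTRL had *Fgf21* well above background. Without array weights 12, 4 and 9 targets rose in *WT*, *Pparα hep-/-* and *Pparα-/-* mice.

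Against *WT* the called targets included higher and lower genes, while *Vnn1* was lower in each comparison. Against *WT* on CTRL, hepatocyte knockouts had 6 higher and 6 lower, and whole-body knockouts 4 higher and 12 lower. The HFD counts were 2 higher and 12 lower for hepatocyte knockouts, and 1 higher and 17 lower for whole-body knockouts. The shares of all probes called were 24.7% and 34.2% on CTRL and 26.7% and 45.7% on HFD. Dropping the array weights gave 6 higher and 5 lower, and 1 higher and 11 lower, on CTRL. Without array weights the target counts on HFD were 1 higher and 5 lower, and 3 higher and 13 lower. *Pdk4*, which restrains pyruvate oxidation, was higher in hepatocyte knockouts than in *WT* mice on CTRL by 2.69 (adjusted p = 1.3e-07), while *Fgf21* was lower (adjusted p = 1.39e-06), with group means of 6.43 against 8.92 and a probe well above background in 4 of 8 hepatocyte knockouts. *Fitm1*, a lipid droplet protein, differed by -4.28 between *Pparα-/-* and *WT* mice on HFD (adjusted p = 1.44e-15), beside the -4.70 of *Vnn1*. *Pparα-/-* mice were below *Pparα hep-/-* mice in 14 of 25 targets on CTRL and 11 of 25 on HFD, with 0 above in either, beside 25.2% and 30.6% of all probes called. Dropping the array weights left 10 and 6.

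The genes near the vanins were mostly dim. Within 0.5 Mb lay 18 other gene symbols with probes, of which 12 trace amine receptor genes did not pass the filter and 6 were tested. On HFD 1 rose and 1 fell in *WT* mice, 1 and 1 in *Pparα hep-/-* mice, and 3 and 1 in *Pparα-/-* mice, beside 18.7%, 20.2% and 24.8% of all probes called. *Slc18b1*, a polyamine transporter, rose by 0.40 in *WT* (adjusted p = 0.00287) and by 0.30 in *Pparα-/-* mice (adjusted p = 0.00859). *Moxd1*, a monooxygenase-like gene, fell in both mutants (adjusted p = 0.000324 and 3.87e-06), opposite in direction to *Vnn1*, and differed by -2.18 in *WT* mice (adjusted p = 0.196), where the group SDs were 3.05 and 4.30. Its group means went from 9.53 to 5.43 in *Pparα hep-/-* and from 13.30 to 6.36 in *Pparα-/-* mice, and on HFD the probe was well above background in 2 and 3 of 8 mice.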

How the data were processed

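RNA from 48 livers was labelled with Cy3 and hybridized to Agilent arrays, 1 mouse per array. Per the file headers the authors extracted intensities with Agilent Feature Extraction 10.10.1.1, and the deposited scanner files were used as intensity values. A deposited table of the authors' processed log2 values served as an alternative; its correlation with the values used here was 0.999 or higher on every array.

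Median spot intensities, without background subtraction, were log2 transformed and quantile normalized. Outlier spots were left out (195 values missing), 0 spots were saturated, and spots of a probe were averaged. Of 56605 probes, 33323 were tested, those with 4 or more of the 8 arrays of some group well above background. The fit (limma 3.58.1, R 4.3.3) had a mean per group, a term for the 2 wash batches in the labels and array weights. It gave 12 comparisons, each adjusted by Benjamini-Hochberg over all probes. Samples were grouped by the labels, and replicates are separate mice. The precision is limited by the 8 arrays per group. Every group had arrays of both wash batches, and all arrays were scanned on 1 day. The fit was tested on simulated data.

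*Vnn1* and *Vnn3*, the gene lists and the tests were chosen with earlier results of these data known. The genes named were both members, *Ppara*, at most 3 called genes with large changes per list and comparison, and the 5 genes closest to each member by Pearson's r. A list gene was read by its brightest tested probe; 29 genes had more than 1, and among 126 calls with another probe 2 were opposite in direction. The lists covered coenzyme A, taurine and glutathione metabolism, *Btd*, PPARα targets, genes within 0.5 Mb, and markers of hepatocytes, macrophages, neutrophils, adipocytes, pancreas, and kidney and gut. Alternatives changed the scaling, background correction (normexp, offset 50), filter, weights, batch and slide terms, samples and test.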

Additional observations from a re-analysis of the deposited data

Results flagged for a closer look

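The *Vnn1* signal of *Pparα-/-* CTRL replicate 2 was 7.45, far above the other 7 mice of its group by Dixon's test. In this group the *Vnn1* spot was well above background in 3 of 8 mice, so its values lay close to the detection limit. The difference of *Vnn1* and *Vnn3* in the same liver was -4.35, which also stood apart but contains the same *Vnn1* value. There were 18 such sets of 8 values tested, and chance sets apart about 1 in 20. Without this mouse the HFD response of *Vnn1* in *Pparα-/-* mice was 1.44, and the shift of its balance with *Vnn3* was 0.76 and passed the test (exact permutation adjusted p = 0.0156), which it missed with all mice.

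The HFD response of *Vnn3* differed between genotypes by a test of the difference itself. The *WT* response exceeded that of hepatocyte knockouts by 0.68 (adjusted p = 0.00976), and the *Pparα hep-/-* response differed from that of *Pparα-/-* mice by -0.70 (adjusted p = 0.00974). Neither passed without array weights or within the second wash batch, where they were 0.57 and -0.79, and the latter was -0.58 and missed within the first.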

How the results depend on the processing

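Of the *Vnn1* values under alternatives, ratio to *Vnn3* included, 886 of 900 kept their direction and side of the threshold, as did 699 of 729 for *Vnn3* and 61 of 66 correlations. Most of these values came from leaving out 1 array, often an array outside the groups compared, which can change little. The other settings numbered at most 13 per result, so the totals say little about them. With 75th percentile scaling of the processed signal, the difference of *Vnn1* responses between the mutants was -0.44, the *Vnn3* difference between *Pparα hep-/-* and *WT* mice on HFD was -0.016, the difference of *Vnn3* responses between *WT* and *Pparα-/-* mice was 0.057, and the ratio shift on HFD in *Pparα-/-* mice was 1.87 and passed. After normexp the difference of *Vnn1* responses between *WT* and *Pparα-/-* mice was 1.48 and passed. Without array weights the *Vnn1* response in *Pparα hep-/-* mice was 1.36 and missed, that of *Vnn3* was 0.011, and its differences from the *WT* and *Pparα-/-* responses were 0.55 and -0.63 and missed. When only the groups compared were fitted, the *Vnn3* difference between the mutants on CTRL was -0.32 and passed. The exact permutation test gave 0.035 for the *Vnn3* response in *Pparα hep-/-* mice, and the authors' values gave r = 0.038 in *Pparα-/-* HFD mice. The cause of these changes was not tested.

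Within the first wash batch, with about 4 mice per group, values that missed the threshold were -0.82 for *Vnn1* between the mutants on CTRL, and for *Vnn3* 0.41 (HFD response in *Pparα-/-* mice), 0.29 (*Pparα-/-* against *WT* on HFD), 0.37 (*Pparα-/-* against *Pparα hep-/-* on HFD) and -0.58 (difference of mutant responses). The *Vnn3* difference of *Pparα hep-/-* from *WT* mice on HFD was -0.081, and that of the *WT* and *Pparα-/-* responses was 0.40. Within the second, *Vnn1* responses of 1.24 (*Pparα hep-/-*) and 1.03 (*Pparα-/-*) missed, as did *Vnn3* values of 0.41 (*Pparα-/-* against *WT* on CTRL), 0.57 and -0.79 (*Pparα hep-/-* response against *WT* and *Pparα-/-*). The *Vnn3* response in *Pparα hep-/-* mice was 0.096.

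Replicate numbers gave little sign of pairing the mice, although the labels do not settle it. The median correlation of deviations was 0.011 over 120 same-numbered pairs, 36 of them above 0.1, and 0.0045 over 840 other pairs. Of 48 arrays, 7 correlated best with their own number. With the replicate number as a block (replicate block) no call changed, and the *Vnn3* response in *Pparα hep-/-* mice was 0.037. Leaving out each array in turn, that response ran from -0.085 to 0.032, the difference of *Vnn3* responses between *WT* and *Pparα-/-* mice from -0.079 to 0.077, the ratio shift on HFD from 0.96 to 1.85 in *Pparα hep-/-* mice and from 0.45 to 0.76 in *Pparα-/-* mice, and r from -0.25 to 0.20 (*Pparα-/-* HFD), from -0.058 to 0.27 (*Pparα-/-* CTRL) and from -0.74 to -0.015 (*Pparα hep-/-* CTRL). The ratio shift in *Pparα hep-/-* mice missed the threshold without CTRL replicates 4 or 7 or HFD replicates 1, 6, 7 or 8. Counts over gene lists stayed within 1.5 times the main count in 25 of 48 cases without array weights, 41 of 48 with 75th percentile scaling and 46 of 48 with the authors' values.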
